A study of Homo sapiens with 6 samples.

Results

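In BE(2)-M17, a cell line from human neuroblastoma, 35 genes were almost silent in every control library and clearly present in 1 of the 3 libraries in which GOMAFU was knocked down. GOMAFU is a long non-coding RNA of the nucleus, and its gene symbol is MIAT. Of 26372 genes in the table, the 35 were chosen by their own values. They were under 0.5 FPKM (fragments per kilobase of gene, scaled to the mapped fragments of the library) in all 3 controls. They were also at 3 FPKM or more in knockdown replicate 4. A further 39 genes met both thresholds but were set aside by name, among them the IFI, OAS, HLA, TRIM and GBP families, other interferon genes and antisense genes. Together 74 genes met both thresholds, 1.41% of the 5249 genes with all controls under 0.5 FPKM that were above 0 in some library. The levels in knockdown replicate 4 and in the controls therefore chose the genes and are given as a description. Knockdown replicates 2 and 3 took no part in the choice. Without the exclusion by name, 14 and 3 genes would have met the same 2 thresholds with knockdown replicate 2 or 3 in place of replicate 4, beside its 74. With control replicate 2, 3 or 4 set against the other 2 controls, 0, 0 and 2 genes did.

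The 6 libraries were polyadenylated RNA of BE(2)-M17 cells, labelled GOMAFU knockdown (replicates 2, 3 and 4) and control (replicates 2, 3 and 4). Per the labels' protocols, cells were transfected with 100 pmol of small RNA using a lipid reagent. The labels do not say which sequence was used against GOMAFU, what the control cells received, or whether replicates were separate cultures, so any spread between them may be technical. MIAT stood at 1.27, 1.32 and 3.21 FPKM in knockdown replicates 2, 3 and 4, against 5.38, 5.96 and 8.57 FPKM in control replicates 2, 3 and 4. MIAT in each knockdown library was under its lowest control (exact two-sided permutation test, p = 0.1, the smallest that 3 against 3 allows), and knockdown replicate 4 held the most MIAT of the 3.

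Depth, read from the smallest steps between low values, ran from 0.972 to 1.36 relative to control replicate 3, and the 3 knockdown libraries lay at 1.08, 1.36 and 1.06. Knockdown replicate 4 stood apart: across genes its log2(FPKM + 1) correlated with the other libraries at 0.940 to 0.956, while the others reached 0.990 to 0.997 with their nearest library. Of the markers of adrenergic neuroblastoma, MYCN, PHOX2A, HAND2, GATA3 and ISL1 were at 33.1 FPKM or more in all libraries, whereas TH, a marker of the same lineage, stayed under 0.1 FPKM throughout. Markers of most other cells were low: the 8 lymphocyte markers summed to 0.11 to 0.30 FPKM in the knockdown libraries and 0.07 to 0.31 FPKM in the controls, the 6 endothelial markers to 0.31 to 0.61 and 0.27 to 0.56, and the 7 epithelial markers to 1.88 to 2.39 and 1.5 to 3.19. The 8 myeloid markers summed to 2.69, 4.66 and 6.16 FPKM in knockdown replicates 2, 3 and 4, against 3.27 to 5.54 FPKM in the controls, with LYZ listed at 0 in all 3 knockdown libraries and CD68 at 2.57 FPKM in knockdown replicate 4, against 0.487 to 0.802 FPKM in the controls. The part of other cells in the results below was not tested. The 6 fibroblast markers summed to 93.9 to 104.5 FPKM in the knockdown libraries and 80.9 to 101 FPKM in the controls, and COL1A2 was listed at 0 in all 6 libraries.

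Of the 35 genes, 7 are in a list of 60 core genes of the response to type I and type III interferons, 20 are in that or another immune list, and 15 are in none. Interferons are cytokines that cells release when they sense foreign or misplaced nucleic acid. Binding of interferon to its receptor activates JAK kinases, and a complex of transcription factors that includes IRF9 then binds a short promoter element, the interferon-stimulated response element (ISRE). Another promoter element of the interferon response is the gamma-activated site (GAS). The genes so induced include enzymes that block virus growth, transcription factors that spread the signal, and inhibitors that end it. In a bulk library, more cells with a transcript and more transcript per cell cannot be told apart.

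Levels in knockdown replicate 4 ran from 3.24 to 159 FPKM with a median of 12.8 FPKM. The median was 0.376 FPKM in knockdown replicate 2 and 0.134 FPKM in knockdown replicate 3, against 0.0737, 0.127 and 0.0659 FPKM in control replicates 2, 3 and 4. Knockdown replicate 4 was highest, knockdown replicate 2 next and knockdown replicate 3 lowest of the knockdown libraries for 31 genes, an order that 911 of the 5249 genes with low controls also had. Its first place for knockdown replicate 4 follows from the choice. Knockdown replicate 2 stood above knockdown replicate 3 for 31 of the 35 and for 2201 of the 5249. The sum over the 35 genes was 32.6, 7.32 and 1005 FPKM in knockdown replicates 2, 3 and 4, against 4.45, 5.36 and 3.75 FPKM in the controls.

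**Figure D1:**
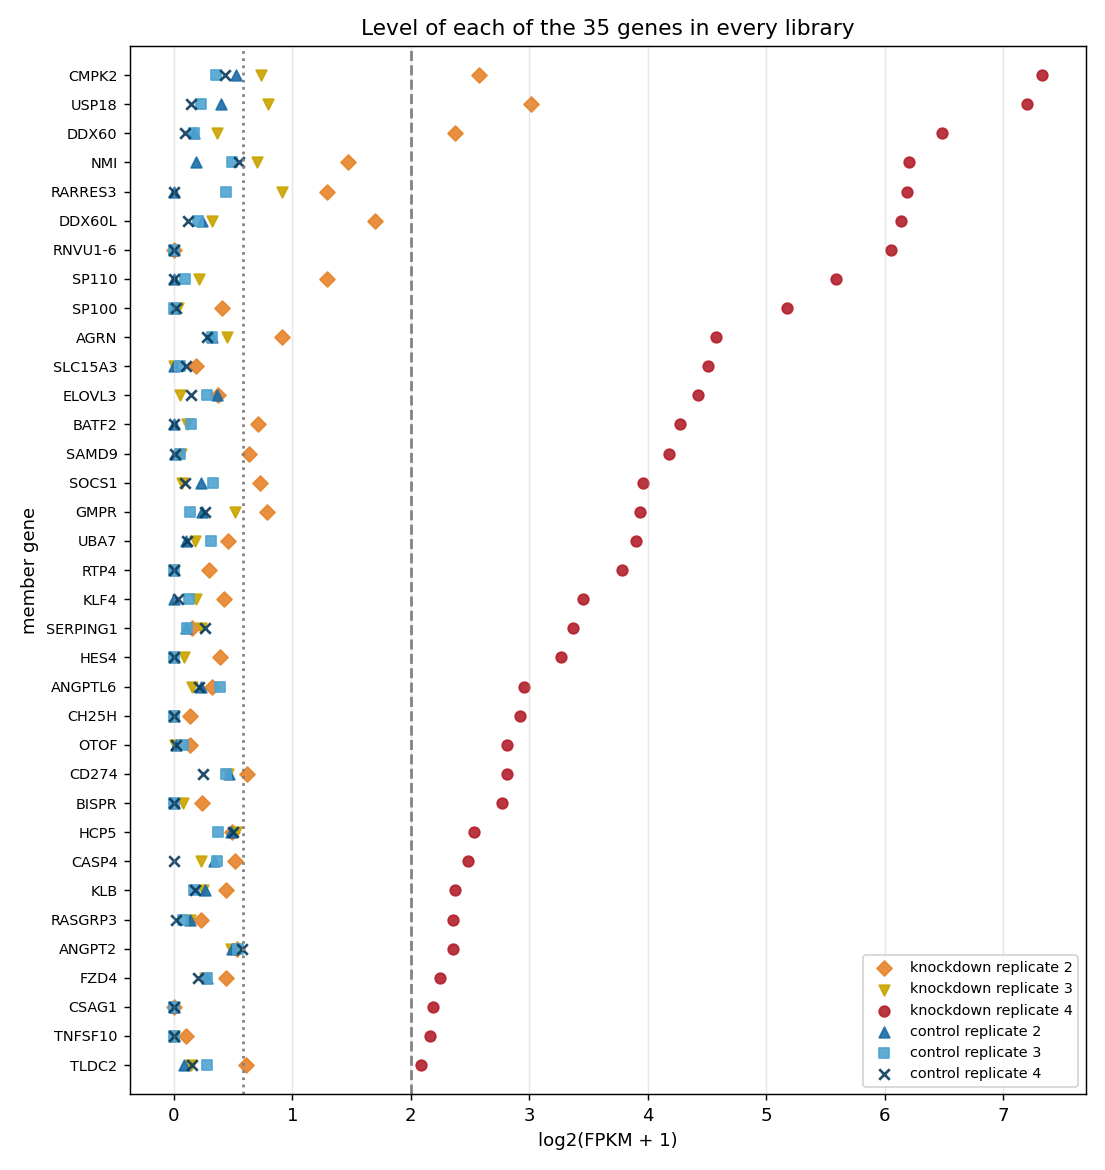
Level of each of the 35 genes, one gene per row in the order of knockdown replicate 4, as log2(FPKM + 1) in each of the 6 libraries (one marker per library). The dotted line marks 0.5 FPKM and the dashed line 3 FPKM, the 2 thresholds that chose the genes; knockdown replicate 2 stands right of the controls for 29 of the 35.

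In knockdown replicate 2, which the choice did not use, 29 of the 35 genes lay above all 3 controls, where 26.0% of the 5249 genes with controls under 0.5 FPKM (and above 0 in some library) did so. The 6 exceptions were RNVU1-6, CSAG1, SERPING1, ANGPTL6, HCP5 and ANGPT2. In knockdown replicate 3, 16 genes lay above all controls, against 24.6% of the 5249, and 5 lay below all controls. Of the 35, 14 were at 0.5 FPKM or more in knockdown replicate 2 (background 2.48%), and 4 in knockdown replicate 3 (background 1.75%): NMI, RARRES3, USP18 and CMPK2. No overlap between the knockdown and control libraries was seen for 15 of the 35, against 4.92% of the 5249 and 4.01% of the 12164 genes that averaged at least 1 FPKM; since knockdown replicate 4 and the controls chose the genes, nothing is read from that count. These comparisons share the controls that chose the genes, so they are counts and no test.

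**Figure D2:**
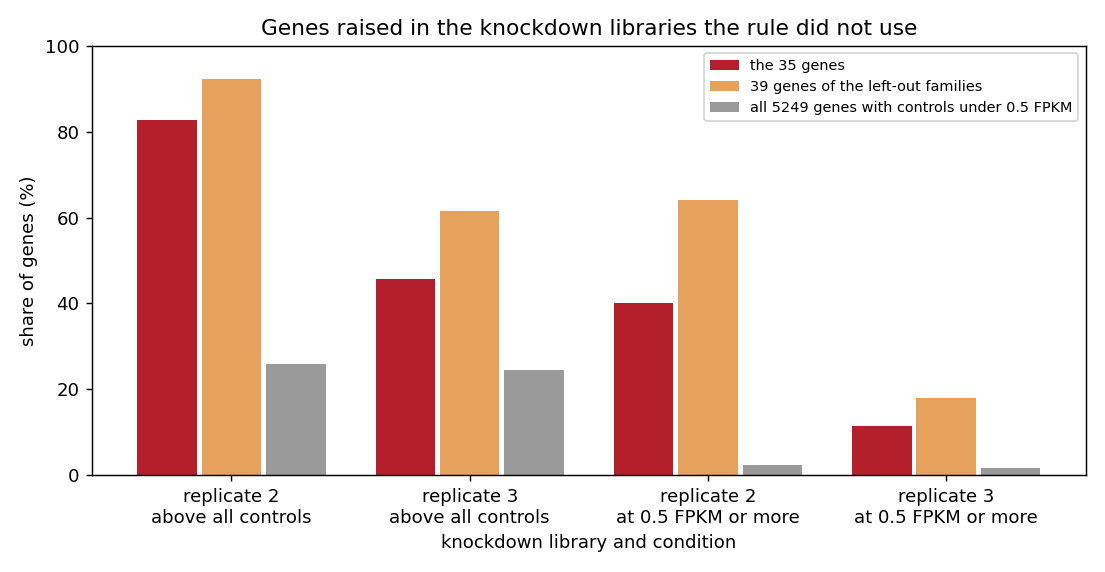
Share of genes (%) that lay above all 3 controls, and share at 0.5 FPKM or more, in knockdown replicates 2 and 3, for the 35 genes, the 39 genes of the left-out families and all 5249 genes with controls under 0.5 FPKM. Both sets chosen on knockdown replicate 4 stand far above the grey bars for replicate 2, at 82.9% and 92.3% against 26.0%, and less so for replicate 3, at 45.7% and 61.5% against 24.6%.

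The limma test across all genes, knockdown minus control, tested 28 of the 35; the other 7 averaged under 1 FPKM over the 6 libraries. It called 0 of these 28 at an adjusted p under 0.05 and 0 of all 12164 genes (0.00%). At an unadjusted p under 0.05 it placed 1 of the 28 (USP18), and of all genes 118 that were higher and 145 that were lower. The median fitted log2 difference of the 28 on the log2(FPKM + 1) scale was 1.44, and that of all 12164 genes -0.01. Because knockdown replicate 4 and the controls chose the genes, these fitted values are a description.

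Antiviral effectors made up the largest group, 8 of the 35. CMPK2, a mitochondrial nucleotide kinase, was the most abundant of all 35, at 4.96, 0.670 and 159 FPKM in knockdown replicates 2, 3 and 4, against 0.440, 0.284 and 0.351 FPKM in control replicates 2, 3 and 4. All 3 knockdown libraries lay above the controls, with knockdown replicate 4 more than 30 times as high as knockdown replicate 2 (ratio 32.2). DDX60, a DExD/H-box helicase of the antiviral response, was at 4.17, 0.290 and 88.5 FPKM in the knockdown libraries, against 0.126, 0.127 and 0.0655 FPKM in the controls. Its neighbour and close relative DDX60L was at 2.24, 0.251 and 69.2 FPKM, against 0.182, 0.151 and 0.0842 FPKM. For both helicases the groups did not overlap, and the order of the knockdown libraries was the same. Both lie on chromosome 4, with 37928 bases between them, and reads that fit both copies may have been split.

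The nuclear body proteins SP110 and SP100 lie on chromosome 2. SP110 was at 1.46, 0.162 and 47.1 FPKM in knockdown replicates 2, 3 and 4, against 0.0675 FPKM in control replicate 3 and a listing at 0 in the other 2 controls. SP100, a component of PML bodies, was at 0.327, 0.0272 and 35.1 FPKM, against 0.0122 FPKM in control replicate 4 and 0 in the rest. SP100 thus had a ratio of 107 between knockdown replicates 4 and 2, and SP110 one of 32.3. SAMD9, a large cytoplasmic restriction factor of poxviruses, was at 0.549, 0.0420 and 17.1 FPKM, against 0.00867, 0.0380 and 0.00977 FPKM. RTP4, a Golgi chaperone of receptors that is induced by interferon, was at 0.226 and 12.8 FPKM in knockdown replicates 2 and 4 and was listed at 0 in knockdown replicate 3 and in all controls. CH25H, the enzyme that makes 25-hydroxycholesterol, had the same pattern at 0.102 and 6.55 FPKM. Of the 43 antiviral effectors of the list, 28 were above all controls in knockdown replicate 2 and 16 in knockdown replicate 3, where 23.5% and 22.7% of the 18663 genes above 0 in some library were. In knockdown replicate 4 it was 36 of the 43, against 31.1% of the 18663, but the rule itself set this for the 8 members. Limma called 0 of the 29 tested (1 at an unadjusted p under 0.05).

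Promoter letters of 5 of the genes show the ISRE core, GAAANNGAAA, where it fell within the 150 bases before the annotated start; they are RefSeq sequences of GRCh38.p14, 5′ to 3′ on the strand of the gene. Capitals mark matches to the core and, in DDX60 alone of these 5, to the GAS letters TTCNNNGAA.
RTP4 (chr3:187368235-187368384, plus strand): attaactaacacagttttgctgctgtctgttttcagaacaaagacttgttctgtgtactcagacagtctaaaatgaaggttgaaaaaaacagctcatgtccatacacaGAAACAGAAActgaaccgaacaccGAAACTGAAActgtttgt
DDX60 (chr4:168318753-168318902, minus strand): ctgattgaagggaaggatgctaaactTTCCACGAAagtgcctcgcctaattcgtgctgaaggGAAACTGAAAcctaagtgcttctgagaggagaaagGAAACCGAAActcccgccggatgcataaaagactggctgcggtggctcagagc
DDX60L (chr4:168480493-168480642, minus strand): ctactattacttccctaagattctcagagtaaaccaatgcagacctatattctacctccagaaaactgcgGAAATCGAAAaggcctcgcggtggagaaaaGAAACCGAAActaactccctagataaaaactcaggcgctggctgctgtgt
SAMD9 (chr7:93117980-93118129, minus strand): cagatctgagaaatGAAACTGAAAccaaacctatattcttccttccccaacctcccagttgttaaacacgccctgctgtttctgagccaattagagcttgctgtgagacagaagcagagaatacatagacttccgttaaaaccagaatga
SOCS1 (chr16:11256205-11256354, minus strand): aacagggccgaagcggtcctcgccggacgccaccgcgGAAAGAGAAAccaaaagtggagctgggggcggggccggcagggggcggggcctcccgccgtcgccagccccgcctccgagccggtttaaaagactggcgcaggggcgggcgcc
RTP4, DDX60 and DDX60L each hold the core at 2 positions: its first base lies 42 and 18 bases before the start of RTP4, 88 and 53 before DDX60, and 80 and 50 before DDX60L. In SAMD9 the single match begins 136 bases before the start and in SOCS1, 113 bases.

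Searched on both strands over 300 bases (250 before to 50 after the start), the core was found in 8 of the 27 genes with a promoter in the table, 29.6%, against 4.38% of 27305 genes of the table and 5.57% of 3481 genes with controls under 0.5 FPKM. Besides the 5 printed, NMI, CD274 and TNFSF10 held it, and in CD274 the 2 matches overlap. The longer form GAAANNGAAACT was in 3 of the 27 (11.1%; 0.322% of the table). The GAS letters, which read the same on both strands, were in 5 of the 27: DDX60, NMI, SP110, CD274 and BISPR (18.5%; 9.38% of the table). Among the 39 genes of the left-out families, 28 had a promoter and 20 of these held the core (71.4%). CMPK2, SP100, BATF2, GMPR, KLF4, HES4 and CH25H were among those without a match to the core in these windows. A match is a string of letters and not a measured binding site.

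**Figure D3:**
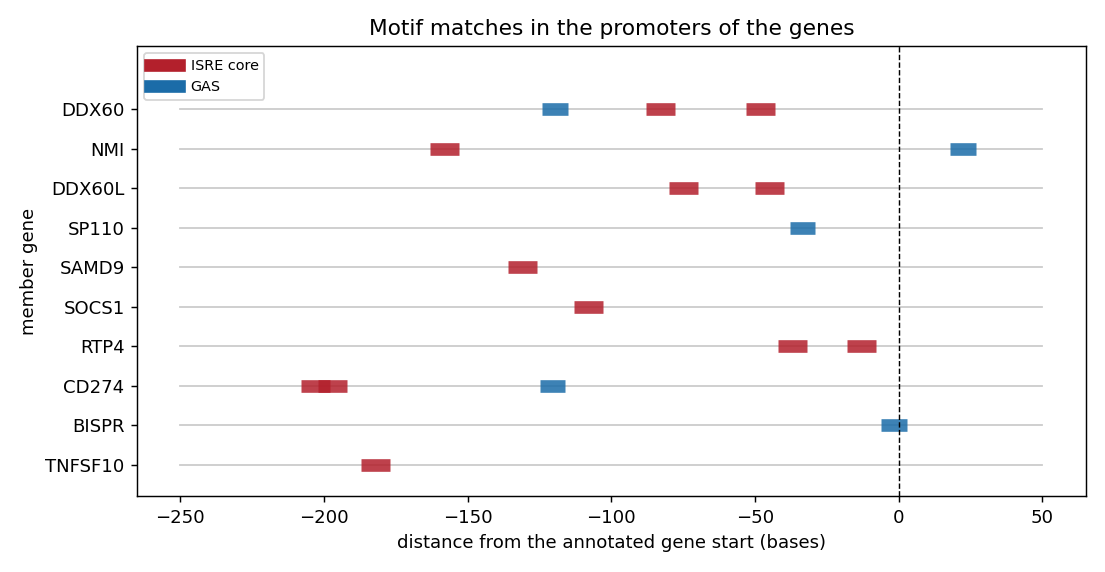
Position of matches to the ISRE core (red) and the GAS letters (blue) relative to the annotated gene start, in bases, for the 10 genes with any match; grey lines span the 300 bases searched, and a gene with several annotated starts is drawn on one line. RTP4, DDX60 and DDX60L carry 2 separate cores within 88 bases of the start.

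ISG15 is a ubiquitin-like protein, induced by interferon, that a chain of enzymes attaches to other proteins, and enzymes at both ends of that cycle were among the 35. USP18 removes ISG15 from its targets and also blocks the interferon receptor. It stood at 7.09, 0.740 and 146 FPKM in knockdown replicates 2, 3 and 4, against 0.316, 0.173 and 0.107 FPKM in the controls, with no overlap, and had the highest level of the 35 in knockdown replicate 2. USP18 lies on chromosome 22 (18149899 to 18177397, plus strand). UBA7, the E1 enzyme that activates ISG15, was at 0.376, 0.134 and 13.9 FPKM, against 0.0737, 0.242 and 0.0830 FPKM. Here knockdown replicate 3 fell within the range of the controls.

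Transcription factors and regulators of signalling formed the second group. NMI, which binds MYC-family and STAT proteins, was at 1.78, 0.630 and 72.5 FPKM in knockdown replicates 2, 3 and 4, against 0.137, 0.403 and 0.466 FPKM. BATF2, a basic leucine zipper factor induced by interferon, was at 0.639, 0.0802 and 18.3 FPKM, against 0.109 FPKM in control replicate 3 and a listing at 0 in the others. SOCS1, the inhibitor of JAK kinases that ends cytokine signalling, was at 0.654, 0.0471 and 14.5 FPKM, against 0.175, 0.256 and 0.0659 FPKM. For SOCS1 knockdown replicate 2 lay above and knockdown replicate 3 below all controls. SOCS2, a relative, was at 4.49, 4.66 and 10.1 FPKM, against 4.22, 4.53 and 9.61 FPKM, with knockdown replicate 4 above all controls and the libraries numbered 4 highest in both groups. The relatives SOCS3 and CISH, also feedback inhibitors, stood at 1.26 and 3.66 FPKM in knockdown replicate 4 with control means of 1.12 ± 0.26 and 4.09 ± 0.32 FPKM (SD, n = 3).

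KLF4, a zinc finger factor known from stem cells and epithelia, was at 0.343, 0.136 and 9.93 FPKM in the knockdown libraries, against 0, 0.0922 and 0.0237 FPKM. Its relatives KLF2 and KLF5 were at 0.624 and 0.431 FPKM in knockdown replicate 4, with control means of 0.966 ± 0.52 and 0.609 ± 0.26 FPKM (SD, n = 3). Both lay within the range of the controls there. The place of KLF4 above the controls in that library was set by the rule, so no contrast is read from it. HES4, a basic helix-loop-helix repressor, was at 0.307, 0.0639 and 8.63 FPKM and was listed at 0 in all controls. RASGRP3, an activator of RAS and RAP GTPases, was at 0.169, 0.10 and 4.12 FPKM, against 0.0967, 0.0546 and 0.0156 FPKM. All 3 knockdown libraries lay above the controls for KLF4, HES4 and RASGRP3. Of 28 transcription factor and feedback genes in the list, 5 were among the 35, and limma called 0 of the 18 tested (2 were higher, at an unadjusted p under 0.05, and 0 lower).

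Among surface and secreted proteins of immune control, CD274, which encodes the T-cell inhibitor PD-L1, was at 0.536, 0.377 and 6.0 FPKM in knockdown replicates 2, 3 and 4, against 0.378, 0.359 and 0.186 FPKM, so knockdown replicate 3 was within the controls. PDCD1LG2, the gene of the second PD-1 ligand, was at 0.0268 FPKM in knockdown replicate 4 and listed at 0 elsewhere. TNFSF10, the death ligand TRAIL, was at 0.0740 and 3.47 FPKM in knockdown replicates 2 and 4 and listed at 0 in knockdown replicate 3 and all controls. Its receptors TNFRSF10A and TNFRSF10B were at 2.10 and 3.27 FPKM in knockdown replicate 4, with control means of 2.32 ± 1.03 and 1.84 ± 0.50 FPKM (SD, n = 3). SERPING1, the C1 inhibitor of complement, was at 0.110, 0.175 and 9.34 FPKM, against 0.0721, 0.0791 and 0.203 FPKM; only knockdown replicate 4 stood clear of the controls.

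Among genes of innate sensing and cell death, SLC15A3, a lysosomal transporter of histidine and small peptides, was at 0.136, 0 and 21.7 FPKM in knockdown replicates 2, 3 and 4, against 0, 0.0364 and 0.0749 FPKM. CASP4, an inflammatory caspase that senses bacterial lipopolysaccharide, was at 0.430, 0.170 and 4.57 FPKM, against 0.263, 0.289 and 0 FPKM. For both genes knockdown replicate 2 lay above the controls and knockdown replicate 3 did not. CASP1, its neighbour in function, was at 0.325 FPKM in knockdown replicate 4 and listed at 0 in the other libraries, and CASP5 was listed at 0 in all 6.

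Metabolic and membrane genes were a mixed group. RARRES3, a phospholipase and acyltransferase induced by retinoids and interferon, was at 1.44, 0.883 and 72.0 FPKM in the knockdown libraries, against 0.361 FPKM in control replicate 3 and 0 in the others. It had the highest level of the 35 in knockdown replicate 3. GMPR, which turns GMP into IMP, was at 0.727, 0.432 and 14.3 FPKM, against 0.178, 0.0978 and 0.201 FPKM, again with no overlap. ELOVL3, an elongase of very long fatty acids, was at 0.295, 0.0390 and 20.5 FPKM, against 0.289, 0.212 and 0.109 FPKM, so knockdown replicate 2 lay just above the highest control and knockdown replicate 3 was lowest of all 6. OTOF, the calcium sensor of vesicle release in inner hair cells, was at 0.102, 0.0101 and 6.02 FPKM, against 0.0125, 0.0549 and 0.0141 FPKM.

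Growth factor and matrix genes outside the classical interferon set were also present. AGRN, the proteoglycan agrin that organises the neuromuscular junction, was at 0.878, 0.366 and 22.9 FPKM in knockdown replicates 2, 3 and 4, against 0.247, 0.253 and 0.215 FPKM. KLB, the FGF co-receptor beta-klotho, was at 0.356, 0.188 and 4.17 FPKM, against 0.203, 0.127 and 0.131 FPKM. FZD4, a receptor of WNT proteins and norrin, was at 0.355, 0.198 and 3.75 FPKM, against 0.213, 0.216 and 0.151 FPKM. AGRN was above the controls in all 3 knockdown libraries, KLB and FZD4 in knockdown replicates 2 and 4. ANGPT2, a ligand of the endothelial receptor TEK, was at 0.448, 0.399 and 4.12 FPKM, against 0.407, 0.456 and 0.494 FPKM, and the angiopoietin-like gene ANGPTL6 at 0.250, 0.113 and 6.77 FPKM, against 0.175, 0.308 and 0.158 FPKM. Neither stood above the controls in knockdown replicate 2 or 3.

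Genes that encode no protein made up 3 of the 35. BISPR, a long non-coding RNA that lies head to head with the tetherin gene BST2, was at 0.178, 0.0566 and 5.82 FPKM in the knockdown libraries and listed at 0 in the controls. HCP5, a transcript of the HLA region, was at 0.402, 0.438 and 4.8 FPKM, against 0.394, 0.297 and 0.417 FPKM, and knockdown replicate 2 was within the range of the controls. RNVU1-6, a variant of the U1 spliceosomal RNA, was at 65.2 FPKM in knockdown replicate 4 and listed at 0 in the other 5 libraries. The gene spans 146052081 to 146052244 on chromosome 1, a short gene, for which few fragments give a high FPKM. The other U1 variants RNVU1-7, RNVU1-15, RNVU1-18 and RNVU1-19 were listed at 0 in all 6 libraries. CSAG1, a cancer-testis antigen gene on chromosome X, was the other gene listed at 0 in all libraries but knockdown replicate 4, where it had 3.56 FPKM. Its close relative CSAG3 was at 2.88 FPKM in that library and listed at 0 in the rest, and reads that fit both may have been split.

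To set the libraries on one scale, the gain of each gene over its control mean in knockdown replicates 2 and 3 was taken as a percent of its gain in knockdown replicate 4. In knockdown replicate 2 the median was 2.82%, with quartiles at 1.09% and 3.48% and a range of -0.12% to 12.8%. The 39 genes of the left-out families had a median of 1.68%, with quartiles at 1.08% and 2.33%. The highest 2 in knockdown replicate 2 were TLDC2 with 12.8% and CASP4 with 5.60%, followed by KLB with 5.03%, USP18 with 4.73% and DDX60 with 4.6%. The gain of CMPK2 was 2.89%, that of SP100 0.92% and that of SLC15A3 0.45%. In knockdown replicate 3 the median gain was 0.16% for the 35 genes and 0.14% for the left-out families. Across the 33 genes above 0 in knockdown replicate 2, log2 levels there and in knockdown replicate 4 correlated at r = 0.79, and at r = 0.37 over 29 genes for knockdown replicate 3. Over all 35 genes, Spearman's rho was 0.56 and 0.28. Knockdown replicate 4 is the library that chose the genes. Genes share their library, so these correlations across genes carry no p.

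**Figure D4:**
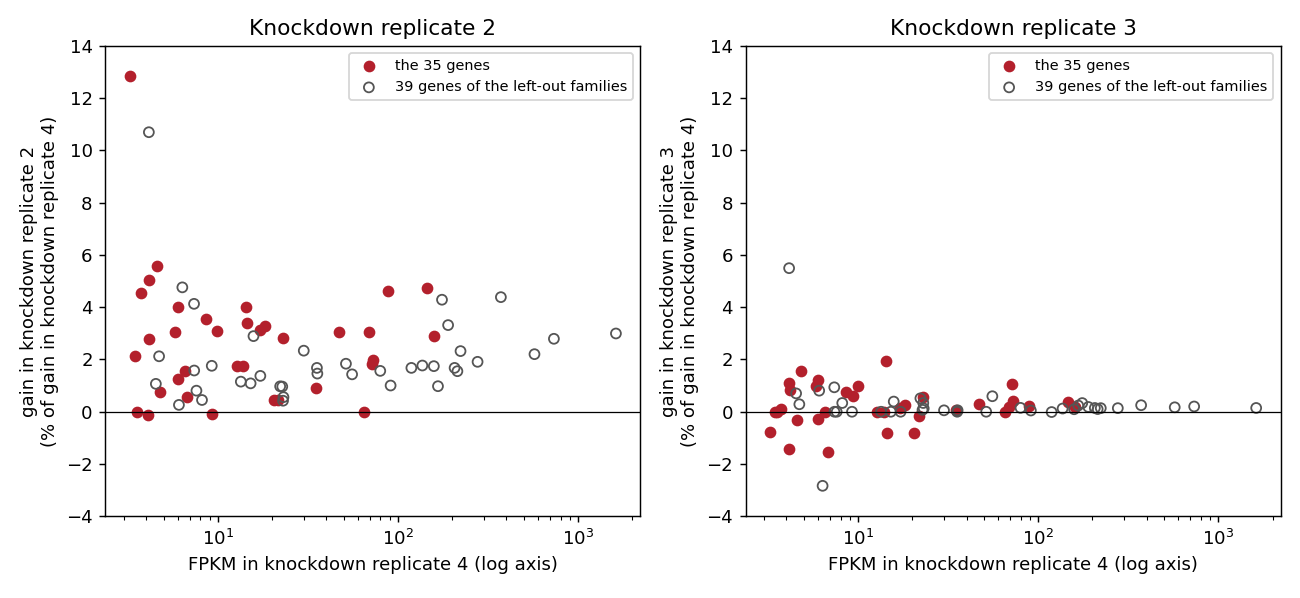
Gain over the control mean in knockdown replicate 2 (left) and 3 (right), as a percent of the gain in knockdown replicate 4, against FPKM in knockdown replicate 4 on a log axis, for the 35 genes (filled) and the 39 genes of the left-out families (open). Most points lie between 0% and 6% for replicate 2 and close to 0% for replicate 3. TLDC2 stands at 12.8% for replicate 2, and TRIM5, of the left-out families, at 10.7% for replicate 2 and 5.49% for replicate 3.

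Position along the chromosomes was not used to choose the genes. They lie on 15 chromosomes, with 6 genes each on chromosomes 2 and 11. For 10 of the 35 (28.6%) another gene within 50000 bases was at 3 FPKM or more, and at 4 times its control mean or more, in knockdown replicate 4. The same held for 2.16% of 23722 genes with coordinates and for 3.34% of 4493 genes with controls under 0.5 FPKM and 2.34% of 11507 genes that averaged at least 1 FPKM. Nearby genes were looked for with knockdown replicate 4, the library that chose the 35, so the shares are a description. HES4 and AGRN flank ISG15 on chromosome 1, with gaps of 966 and 5583 bases, and AGRN lies downstream of ISG15 on the same strand. ISG15 was at 48.6, 2.40 and 1622 FPKM in knockdown replicates 2, 3 and 4, against 0.149 FPKM in control replicate 3 and a listing at 0 in the others.

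In 3 pairs the annotated genes overlap on opposite strands. CMPK2 (chromosome 2, 6840570 to 6866635) overlaps the antiviral gene RSAD2, which was at 1.02, 0.154 and 91.0 FPKM in the knockdown libraries, against 0.121, 0.0758 and 0.136 FPKM in the controls. ANGPTL6 (chromosome 19, 10092338 to 10102796) overlaps C19orf66, a restriction factor at 1.68, 0.483 and 47.1 FPKM, against 0.478, 0.487 and 0.506 FPKM. TLDC2 (chromosome 20, 36876121 to 36894235) overlaps the dNTPase SAMHD1, at 12.6, 5.58 and 157 FPKM, against 5.41, 5.93 and 7.83 FPKM in the controls; TLDC2 itself was at 0.528, 0.105 and 3.24 FPKM, against 0.0647, 0.213 and 0.109 FPKM. The labels do not say that strand was kept or counted, so fragments of such partners cannot be told apart, and the values of the less abundant partner, ANGPTL6 and TLDC2, are uncertain. BISPR lies 38 bases from BST2, which was at 8.06, 0.533 and 224 FPKM in the knockdown libraries, against 0.512, 0.241 and 0.0828 FPKM. SERPING1 lies 29103 bases from UBE2L6, the E2 enzyme for ISG15. By its GENCODE span, which starts at 31400702 on chromosome 6, HCP5 lies 43514 bases from HLA-B. The RefSeq promoter of HCP5 is farther off, at 31463030 to 31463179, more than 50000 bases from HLA-B, so this pair rests on the GENCODE span.

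**Figure D5:**
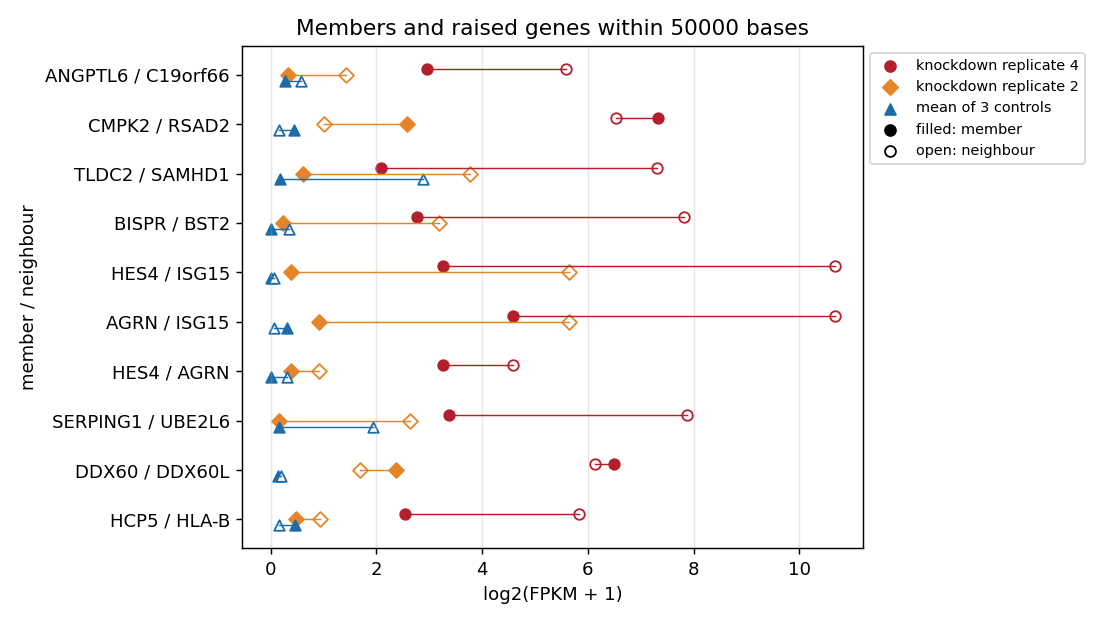
Pairs of 1 of the 35 genes (filled markers) and a gene within 50000 bases (open markers) as log2(FPKM + 1) in knockdown replicate 4, knockdown replicate 2 and the mean of the 3 controls. ISG15, BST2, SAMHD1 and UBE2L6 stand far right of the member beside them in knockdown replicate 4, whereas CMPK2 stands right of RSAD2 and DDX60 right of DDX60L.

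The wider pathway was read from a list of 60 core interferon response genes, of which 7 are among the 35 and 30 met both thresholds. In knockdown replicate 2, 57 of the 60 were above all controls, against 23.5% of the 18663 genes, and in knockdown replicate 3, 41 were, against 22.7%. All 60 were above all controls in knockdown replicate 4 (31.1% of the 18663), which the thresholds set for the 30. Limma tested 57 of them and called 0 (at an unadjusted p under 0.05, 11 were higher and 0 lower), with a median log2 difference of 2.38 on the log2(FPKM + 1) scale, beside -0.01 for all genes. Because the thresholds on knockdown replicate 4 and the controls also picked 30 of the 60, and the filter kept such genes through that library, this median is a description. IRF9 was already present in the controls, at 35.3, 10.3 and 113 FPKM in the knockdown libraries, against 7.37, 6.06 and 5.12 FPKM. The receptor genes IFNAR1 and IFNAR2 averaged 10.8 ± 0.48 and 7.15 ± 0.10 FPKM in the knockdown libraries and 11.1 ± 0.47 and 6.75 ± 0.70 FPKM in the controls (SD, n = 3 each). Lists for antigen presentation, adhesion and NF-kappa-B targets held 0 of the 35. The antigen presentation list has none of the HLA and PSM families or TAP1, which the rule set aside by name. In knockdown replicate 4, 12 of 18, 5 of 24 and 8 of 16 genes of these lists were above all controls (31.1% of the 18663). In knockdown replicate 2 it was 7, 4 and 7 genes (23.5%), and in knockdown replicate 3 it was 7, 2 and 2 (22.7%). In those 3 lists limma called 0 of 7, 0 of 6 and 0 of 10 genes tested (at an unadjusted p under 0.05, 1 NF-kappa-B target was higher and 1 adhesion gene lower).

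The profile of CMPK2 over the 6 libraries, each gene scaled to its own highest log2(FPKM + 1), was nearest to those of PARP14, IFIT2, BST2, CCL5 and HERC6, at distances of 0.06 to 0.08 among 10820 genes. Near the thresholds, TLDC2, TNFSF10 and CSAG1 were inside with 3.24, 3.47 and 3.56 FPKM in knockdown replicate 4, and CSAG3, TRANK1 and NRIR outside with 2.88, 2.77 and 2.70 FPKM. ANGPT2, NMI and CMPK2 had the highest control values inside, at 0.494, 0.466 and 0.440 FPKM. C19orf66, ZCCHC2 and TNF were just outside, with a highest control of 0.506, 0.543 and 0.564 FPKM and 47.1, 6.51 and 3.14 FPKM in knockdown replicate 4.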

How the data were processed

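Polyadenylated RNA was sequenced as paired reads of 150 bases and 100M reads aimed for in each library, per the labels' protocols. The deposited values are FPKM, 1 column per library; the submitters' processing notes name TopHat2, Cuffdiff and hg38. No version, annotation or filter is given in the sources used here. A count model needs counts and was therefore left out. The number of reads obtained per library is unknown, and only a relative depth was read from the values. An exact 0 can be a failed estimate.

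The members and gene lists were chosen with earlier results of these data known. All 35 members are described; genes outside them follow a rule (nearest to each threshold, nearest profile) or were picked after their values were seen as relatives, receptors or neighbours. Genes averaging at least 1 FPKM were compared as log2(FPKM + 1) with limma 3.58.1 in R 4.3.3 (trend, two-sided, no covariate), with Benjamini-Hochberg adjustment over all 12164. Fold changes on that scale understate low genes. The fit was first run on simulated data with the spread of the controls and an equal shift in all 3 knockdown libraries. There the fit recovered 58% of log2 changes of 0.5 and 100% of changes of 3, with 15 false calls. That setting held no outlying library, so it does not show how the fit handles knockdown replicate 4. Coordinates are from GENCODE release 29 (GRCh38), matched by symbol, and promoters from RefSeq (GRCh38.p14), with older symbols matched by synonym. Alternatives covered the pseudocount, filters, scaling, library weights, small RNA genes, the replicate block and each library left out. The small RNA alternative left out other genes by name and kept RNVU1-6. Some results are not reported here.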

Additional observations from a re-analysis of the deposited data

How the results depend on the processing

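Under 14 listed alternatives and 1 added after the data were seen (leaving out both libraries numbered 4), limma called 0 members in every setting. Only 2 members could be tested without knockdown replicate 4. All 350 refitted member differences stayed above 0 and short of the threshold (lowest adjusted p 0.0665), but their size rests on knockdown replicate 4. Library weights, which gave that library a weight of 0.153, took ANGPTL6 to 0.02 against 0.87, RNVU1-6 to 0.21 against 2.02, ELOVL3 to 0.18 against 1.35 and RARRES3 to 1.01 against 2.65. Without that library CMPK2 stood at 1.22 against 3.11 and USP18 at 1.65 against 3.41. Over all genes it called 22 with library weights and 1, MIAT, without both libraries numbered 4, and 0 otherwise. MIAT had a log2 difference of -1.42 (adjusted p = 0.9998). It passed at -1.58 (adjusted p = 0.00299) when libraries were weighted. Leaving out both libraries numbered 4 gave -1.54 (adjusted p = 0.0118). It ran from -1.71 to -1.24 with 1 library left out (adjusted p = 0.00299 to 1 over its 14 alternatives). It was not tested at a mean of at least 5 FPKM, which it does not reach. The cause was not tested.

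With 1 FPKM in place of 0.5 FPKM as the level that counts as present, 7 of the 35 genes in place of 14 were present in knockdown replicate 2 and 0 in place of 4 in knockdown replicate 3. Counts above all controls, refitted after the data were seen with upper-quartile scaling or 1 control left out, ran from 29 to 31 for knockdown replicate 2 and from 16 to 18 for knockdown replicate 3. With the replicate block MIAT differed by -1.42 (adjusted p = 0.194) and 0 genes were called. Same-numbered libraries deviated together at r = 0.09, 0.17 and 0.32, and not every library went best with its own number, so the numbers were not taken as pairs.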

Other observations

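Just below the upper threshold, and again without the left-out families, 46 further genes had controls under 0.5 FPKM and 1 to under 3 FPKM in knockdown replicate 4; 17 of these lay above all controls in knockdown replicate 2 and 10 in knockdown replicate 3, where 26.0% and 24.6% of the 5249 genes with low controls did. They were listed after the values were seen. They include ERAP2, a peptidase that trims antigenic peptides, at 0.104, 0.0182 and 2.60 FPKM in knockdown replicates 2, 3 and 4, the complement factor gene CFB at 2.01 FPKM in knockdown replicate 4, the pore-forming GSDMD at 2.27 FPKM, the cysteine protease CTSS at 1.27 FPKM, and CD74, the chaperone of HLA class II, at 1.17 FPKM. SAMD9L, the neighbour of SAMD9, was at 0.0188, 0.0149 and 1.48 FPKM. Genes of neural function were also in this range in knockdown replicate 4. The GDNF receptor gene GFRA1 was at 2.19 FPKM there, the sodium channel gene SCN3A at 1.93 FPKM and the opioid receptor gene OPRK1 at 1.17 FPKM. Of the genes named here, CFB, GSDMD, CD74 and GFRA1 lay above all controls in neither knockdown replicate 2 nor 3. ERAP2, SCN3A and OPRK1 did so in knockdown replicate 2 only, and CTSS and SAMD9L in both.

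Just above the lower threshold, and without the left-out families, 13 genes had a control at 0.5 FPKM or more, a control mean under 5 FPKM and at least 10 times that mean in knockdown replicate 4, also picked after the values were seen. All 13 were above all controls in knockdown replicate 2, and 5 were in knockdown replicate 3. Of the 18663 genes above 0 in some library, 23.5% and 22.7% were. UBE2L6, the E2 enzyme for ISG15, was 82.2 times its control mean in knockdown replicate 4, 1.83 times in knockdown replicate 2 and 0.87 times in knockdown replicate 3. The scramblase gene PLSCR1 was at 74.2, 7.56 and 1.63 times in the same order, and DTX3L, a ubiquitin ligase, at 62.3, 5.48 and 1.28 times. The immune signalling gene THEMIS2 was at 28.8 times and PIK3AP1, an adaptor of PI3-kinase, at 10.2 times in knockdown replicate 4.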
